A study of Mus musculus with 4 samples.

Results

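Protocadherins were examined in mouse embryonic fibroblast (MEF) lines that carry or lack Ip6k1, the gene of an enzyme that makes inositol pyrophosphates. Every probe of the array whose gene name begins with Pcdh was taken, control spots excluded, which gave 75 probes for 47 of the 27827 gene names on the array. They were divided by name into Pcdha (6 probes, 4 names), Pcdhb (28 probes, 22 names), Pcdhg (11 probes, 7 names) and non-clustered genes (30 probes, 14 names). The samples were 2 Ip6k1+/+ and 2 Ip6k1-/- lines, each from a different embryo at embryonic day 14, all embryos coming from 1 mating of heterozygous parents. All 4 lines had been immortalised with SV40 large T antigen, were harvested while growing exponentially, and were hybridised to 1 single-colour whole-genome array each. The lines are named here by genotype and by the replicate number of the labels, as Ip6k1+/+ line 1, for example. The genotypes therefore share the transforming antigen and the litter, and each genotype rests on 2 lines.

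Protocadherins are cadherin-related adhesion molecules of the cell surface, best known from neurons, where combinations of clustered isoforms give each cell a recognition identity. In the Pcdha and Pcdhg clusters a promoter and variable exon are chosen for each transcript and spliced to constant exons that all members of the cluster share, whereas Pcdhb genes each stand alone without shared constant exons. Promoter choice in the clusters involves CTCF, cohesin and DNA methylation, and the non-clustered protocadherins are separate genes with their own promoters.

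Values are log2 of the background-corrected signal minus the 75th percentile of the same array, so that 0 marks that percentile and 1 unit is a 2-fold step. Probes differ in how brightly they hybridise, so values are compared between lines for a probe and never between probes. A probe is called well above background where the scanner software marked it so, and it was tested if this held on both arrays of at least 1 genotype. Of the 75 protocadherin probes 32 (42.7%) were tested, for 23 names, beside 21573 of 41174 probes (52.4%) over the array. They comprised 3 Pcdha, 13 Pcdhb, 7 Pcdhg and 9 non-clustered probes. Another 35 protocadherin probes were well above background on no array, and 8 on too few arrays to be tested. In bulk RNA, fewer cells that express a gene and less RNA per cell cannot be told apart.

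The lines were checked against their labels first. Ip6k1 probe A_51_P213766 (chromosome 9, 107948209 to 107948268, build mm9) lay at 0.35 and 0.39 in Ip6k1+/+ MEFs and gave no signal well above background in Ip6k1-/- MEFs, so that it was at least 34.0-fold brighter in Ip6k1+/+ MEFs (limma adjusted p = 0.0356). Probe A_52_P413035, which overlaps it, was at least 32.7-fold brighter, whereas probe A_51_P103718 (107950832 to 107950891) stayed well above background in every line, at 2.46 and 2.61 against -1.98 and -1.23, which is -4.13 apart (standard error 0.33, limma adjusted p = 0.368). For such a limit, the mean of the bright genotype was divided by the faintest signal that still counted as well above background on each dim array (its floor), or by the probe's own signal there if higher. All 12 fibroblast markers on the list used were well above background on every array. Leaving out 2 that were saturated (Col1a1 and Col1a2), their summed linear level, in multiples of the 75th percentile signal and weighted by how brightly each probe hybridises, was 275 and 350 in Ip6k1+/+ MEFs and 203 and 193 in Ip6k1-/- MEFs. On 5 of the 12 both Ip6k1-/- lines lay lower, beside 12.6% of all probes tested, and on 0 both lay higher, beside 18.8%. Pdgfrb alone passed the 2-fold rule downwards, beside 1.87% of all probes tested.

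Markers of other cell types were examined too. Of 8 neuronal markers on the array 2 were tested, Snap25, Gap43, Dcx and Nefl were well above background in no line, and the summed level of 1.098 and 2.77 against 1.81 and 3.38 overlapped between genotypes. Of 8 glial and neural crest markers 4 were tested, with a median difference of -0.10 and summed levels of 1.38 and 3.23 against 1.104 and 4.45. Sox2, the member past the 2-fold rule, lay at -2.06 and -4.69 against -5.37 and -6.85, where both Ip6k1-/- values were not well above background. Of 7 endothelial markers 6 were above background in no line, and Kdr was higher in both Ip6k1-/- lines, at -3.66 and -3.99 against -2.94 and -1.59. The summed endothelial level was 0.163 and 0.122 against 0.203 and 0.420. Of 6 blood markers 5 were above background in no line, Cd68 lay at -3.07 and -2.63 against -1.82 and -2.52, and the sum was 0.186 and 0.211 against 0.350 and 0.221. Of 7 epithelial markers 3 were tested, Cldn7 lay at -4.76 and -4.31 against -2.05 and -4.00, and the sum was 0.216 and 0.220 against 0.416 and 0.227. Of 6 skeletal muscle markers 2 were tested, Actc1 and Mylpf, with sums of 36.1 and 26.3 against 23.3 and 23.6. No marker of these lists was called by limma, and their part in the protocadherin results was not tested.

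Most Pcdhb probes had a lower mean signal in Ip6k1-/- MEFs, although none passed the limma test and the direction on several rested on Ip6k1-/- line 1. On the 10 Pcdhb probes well above background on all 4 arrays, 9 had a lower mean in Ip6k1-/- MEFs, beside 41.6% of all 19957 such probes, and the median log2 difference between genotypes was -0.54, beside 0.06. Of the 13 Pcdhb probes tested, 12 had a lower mean (43.5% of all probes tested) and the median was -0.84, beside -0.49 for all 32 protocadherin probes and 0.05 for all probes, but Pcdhb14, Pcdhb15 and Pcdhb19 entered through their signal in Ip6k1+/+ MEFs, so this count and median are descriptions set partly by the filter. Pcdhb20 and Pcdhga1 of the gamma cluster passed a 2-fold rule with signal in every line, 2 of 25 protocadherin probes beside 1.21% of all probes. Pcdhb14 and Pcdhb19, which were dim in both or 1 of the Ip6k1-/- lines, passed it as well, which made 4 of the 32 tested (1.87% of all probes tested). That rule asks that the genotype means lie 1 log2 unit or more apart and that neither Ip6k1-/- line comes closer than 0.9 to the mean of the Ip6k1+/+ lines. No protocadherin probe passed it upwards, against 1.06% of all probes. The test of the difference was limma with Benjamini-Hochberg adjustment over all 21573 probes, and it called 0 protocadherin probes, beside 0.0139% of all probes. At an unadjusted p under 0.05 there were 4 protocadherin probes, the same ones that passed the 2-fold rule, beside 3.34% of all probes. With 2 lines a genotype, an exact permutation test of a single probe cannot go below a two-sided p of 0.333.

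**Figure D1:**
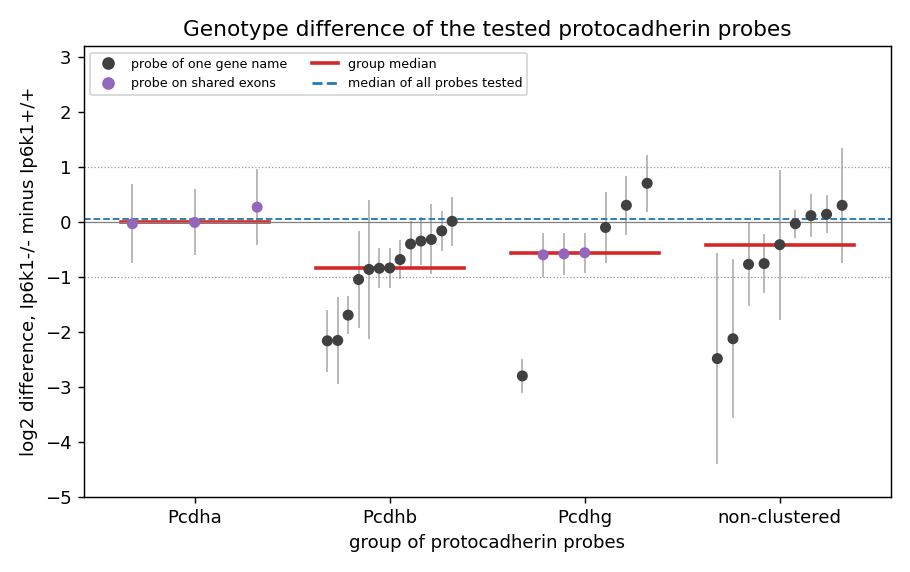
Difference in log2 signal, Ip6k1-/- minus Ip6k1+/+ MEFs, for each of the 32 tested protocadherin probes (points, bars are the limma standard error), with the median of each group in red, the median of all 21573 tested probes as a dashed blue line, and dotted lines at a 2-fold difference. The Pcdhb points lie below 0 except for 1, the shared-exon points of Pcdha lie around 0 and those of Pcdhg near -0.58, and the widest bars belong to Pcdh9.

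The Pcdhb cluster lies on chromosome 18, where its probes span 37426782 to 37680728 (mm9), and the gene numbers follow the order of the probes along it. Signal was not spread evenly along that order. Of the 13 genes Pcdhb1 to Pcdhb13, 2 were tested, Pcdhb5 and Pcdhb6, whereas all 9 genes from Pcdhb14 to Pcdhb22 were. The other genes of the first stretch were well above background in no line, with the exception of Pcdhb7. A second Pcdhb5 probe also had no signal well above background, at -7.16 and -7.40 against -5.67 and -6.88. A probe without signal therefore does not show that its gene was silent. Pcdhb7 had signal in Ip6k1+/+ line 1 alone, at -3.56, with -6.36, -6.44 and -6.85 in the others.

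**Figure D2:**
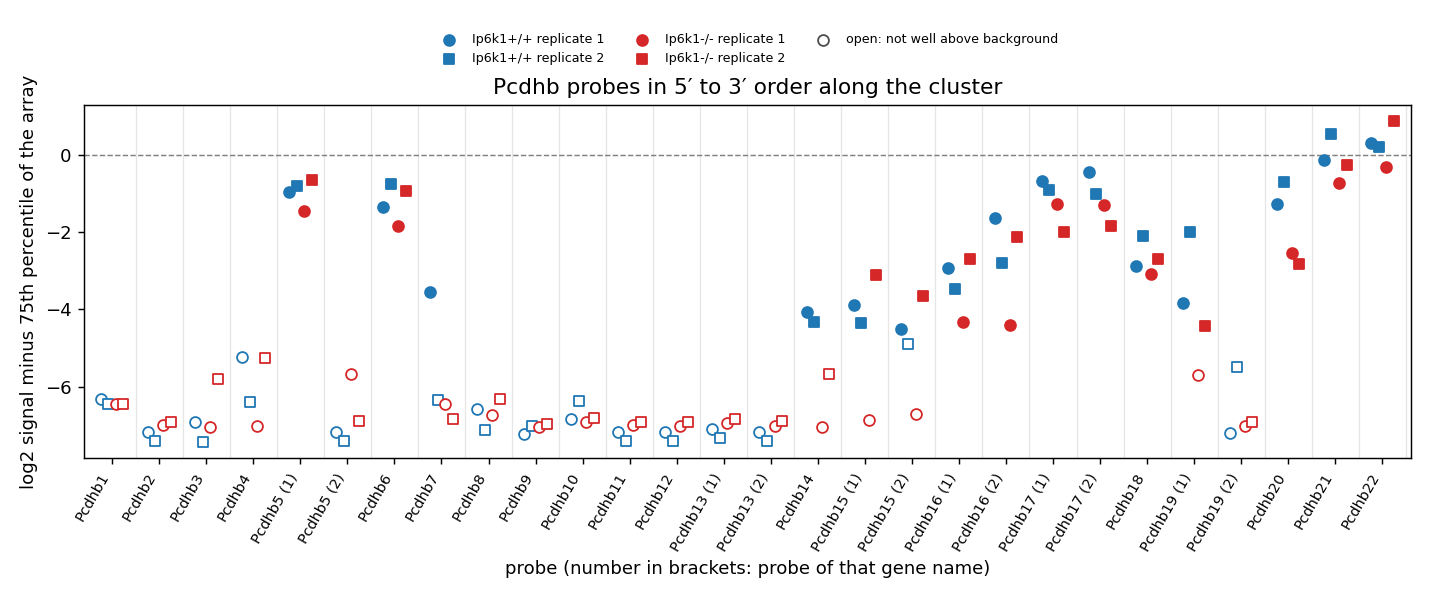
Log2 signal relative to the 75th percentile of each array (y axis) for the 28 Pcdhb probes in order along the cluster (x axis), with 1 point for each MEF line and open symbols where the probe was not well above background. Filled symbols cluster at Pcdhb5, Pcdhb6 and from Pcdhb14 onwards, and the lowest filled or open point of each tested probe is red, that is, from an Ip6k1-/- line.

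Pcdhb20 was measured in every line. Its probe (chromosome 18, 37666914 to 37666973) lay at -1.29 and -0.70 in Ip6k1+/+ MEFs, against -2.54 and -2.83 in Ip6k1-/- MEFs. The genotypes did not overlap, and the difference of -1.69 (standard error 0.35, limma adjusted p = 0.993) was larger than the 0.59 between the Ip6k1+/+ lines. Pcdhb19 (37659175 to 37659234) lay at -3.83 and -1.99 in Ip6k1+/+ MEFs and at -5.70 and -4.43 in Ip6k1-/- MEFs, where line 1 was not well above background. The groups did not overlap, but the measured difference of -2.16 (limma adjusted p = 0.993) became -1.68 with line 1 raised to the floor of its array and -0.80 with another background correction (normexp), beside a gap of 1.83 between the Ip6k1+/+ lines, and without Ip6k1+/+ line 2 it no longer passed the 2-fold rule. The second Pcdhb19 probe had no signal well above background in any line. Pcdhb14 (37610021 to 37610080) lay at -4.07 and -4.33 in the Ip6k1+/+ lines, and both Ip6k1-/- lines, at -7.05 and -5.67, were not well above background. Only a limit can be given for it, a signal at least 1.43-fold higher in Ip6k1+/+ MEFs (limma adjusted p = 0.993).

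Both Pcdhb17 probes gave nearly the same picture at a smaller size. The first lay at -0.69 and -0.92 against -1.27 and -2.01, and the second at -0.44 and -1.02 against -1.30 and -1.84, each with a difference of -0.84 (standard errors 0.36 and 0.37). The groups did not overlap on either probe. Pcdhb21 lay at -0.15 and 0.53 against -0.72 and -0.26, again without overlap, with a difference of -0.68 (standard error 0.36). With Pcdhb14, Pcdhb19 and Pcdhb20 these made 6 of 13 Pcdhb probes on which every Ip6k1-/- value was under every Ip6k1+/+ value, and Pcdhga1 made 7 of 32 for all protocadherins, beside 12.6% of all probes tested. Among probes well above background on all 4 arrays these were 4 of 10 and 5 of 25, beside 11.5% of all. The opposite order, with both Ip6k1-/- lines on top, was found for 0 protocadherin probes and for 18.8% of all probes. Limma adjusted p-values were 0.993 for all of these Pcdhb probes.

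On the other Pcdhb probes the lines of the genotypes overlapped. Pcdhb16 lay at -2.93 and -3.47 against -4.33 and -2.71 on its first probe and at -1.63 and -2.81 against -4.41 and -2.12 on its second. Ip6k1-/- line 1 was the lowest on both, and Ip6k1-/- line 2 lay above Ip6k1+/+ line 2 on both. Pcdhb15 was measured in 3 lines, with -3.89 and -4.36 in Ip6k1+/+ MEFs, -6.86 in Ip6k1-/- line 1, not well above background, and -3.11 in line 2. With line 1 raised to the floor of its array, the Ip6k1-/- lines differed by at least 1.64 and the genotypes by 0.19. Its second probe, which overlaps the first by 20 bases, ran the same way at -4.51, -4.91, -6.70 and -3.65 and was well above background only in Ip6k1+/+ line 1 and Ip6k1-/- line 2.

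Pcdhb5 lay at -0.96 and -0.81 against -1.45 and -0.65, and Pcdhb6 at -1.36 and -0.75 against -1.85 and -0.95. In both, Ip6k1-/- line 1 was the lowest, while line 2 was the highest for Pcdhb5 and lay between the Ip6k1+/+ lines for Pcdhb6. Pcdhb18, whose probe is also listed for Pcdhb17 and Pcdhb20, lay at -2.89 and -2.10 against -3.09 and -2.69. Pcdhb22, the last gene of the cluster, had the smallest difference, 0.01 (standard error 0.45), with 0.31 and 0.21 in Ip6k1+/+ MEFs between -0.32 and 0.87 in the Ip6k1-/- lines.

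The size of the Pcdhb median, and the direction on several probes, depended on Ip6k1-/- line 1. Its signal was the lowest of the 4 lines on 7 of the 10 Pcdhb probes well above background on all 4 arrays, beside 18.9% of all such probes. On Pcdhb20 and both Pcdhb17 probes, Ip6k1-/- line 2 was the lowest instead. Without line 1 the median over the 13 tested Pcdhb probes moved from -0.84 to -0.20. Among the 10 probes with signal on all 4 arrays, Pcdhb5, Pcdhb6 and both Pcdhb16 probes then turned from lower to higher. Their differences were 0.24, 0.11, 0.50 and 0.10, and that of Pcdhb22 was 0.61. Pcdhb20, both Pcdhb17 probes, Pcdhb21 and Pcdhb18 stayed lower, at -1.84, -1.21, -1.11, -0.45 and -0.20.

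The largest difference of the gamma cluster was that of Pcdhga1. This gene, whose variable exon is the first of the cluster, was measured in every line by a probe at 37823710 to 37823769 of chromosome 18. It lay at -1.65 and -1.84 in Ip6k1+/+ MEFs, against -4.50 and -4.60 in Ip6k1-/- MEFs, so that both knockout lines were far below both others. The lines of a genotype differed by 0.19 and 0.11, and the genotypes by -2.80 (standard error 0.31), which is a 6.97-fold lower signal in Ip6k1-/- MEFs. Its limma adjusted p of 0.527, from an unadjusted p of 0.00039, was the smallest among protocadherins, and it stayed within -2.90 and -2.71 when any line was left out, and was -1.47 with normexp.

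On the other tested Pcdhg probes outside the shared exons the genotypes overlapped. Pcdhga4 lay at -2.59 and -2.91 against -3.11 and -1.78, and Pcdhga7 at -4.38 and -5.43 against -4.51 and -3.89, the second Ip6k1+/+ line being not well above background. A probe named Pcdhg@, which the files tie to the cluster and to no gene, lay at -3.12 and -4.19 against -4.43 and -3.08. Ip6k1-/- line 2 was the highest line on all 3 probes. With Pcdhga1 the 4 probes had a median difference of 0.10. A second Pcdhga4 probe, the single-gene probe of Pcdhga9, Pcdhga12 and Pcdhgb4 were well above background in no line.

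Total output of the gamma cluster can be read from 3 probes that carry the name Pcdhga9 but lie at the shared 3′ end of the cluster, at 37999725 to 38001435, and list transcripts of Pcdhga5, Pcdhga6 and Pcdhga9. By RefSeq annotation, 21 of 22 Pcdhg genes end within 10 bases of the same position, as do 13 of 14 Pcdha genes, against 1 of 22 Pcdhb genes. The first shared probe lay at -1.75 and -1.14 in Ip6k1+/+ MEFs and at -2.37 and -1.70 in Ip6k1-/- MEFs. The second lay at 3.97 and 4.73 against 3.40 and 4.14, and the third, which overlaps it by 40 bases, at 4.43 and 4.98 against 3.74 and 4.55. On all 3 the lines came in the same order, with Ip6k1-/- line 1 lowest and Ip6k1+/+ line 2 highest, and Ip6k1-/- line 2 slightly above Ip6k1+/+ line 1. The differences of -0.60, -0.58 and -0.56 (standard errors 0.40, 0.38 and 0.36, limma adjusted p = 0.993) were smaller than the largest gap between lines of a genotype. These probes read 1 pool of transcripts and are not independent measurements. The median over all 7 tested Pcdhg probes was -0.56, with 5 below 0, and -0.57 over the 6 well above background on all 4 arrays.

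In the alpha cluster only the shared exons gave signal that could be tested. The 3 probes carry the name Pcdhac2 and list transcripts of Pcdha4, Pcdha9, Pcdhac1 and Pcdhac2, and lie between 37315820 and 37347076 of chromosome 18. They lay at -1.61 and -3.62 against -2.62 and -2.66, at -0.71 and -2.66 against -1.41 and -1.41, and at -2.74 and -4.31 against -3.45 and -3.62. The Ip6k1+/+ lines were the highest and the lowest on every probe, and the Ip6k1-/- lines, close to each other, lay between them. The differences between genotypes were -0.03, 0.27 and -0.01 (standard errors 0.72, 0.69 and 0.60), with a median of -0.01. The probes of Pcdha4 and Pcdha9 were well above background in no line, and that of Pcdha6 in Ip6k1+/+ line 1 alone, at -4.31, its spot on the array of Ip6k1-/- line 1 having been left out as an outlier.

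**Figure D3:**
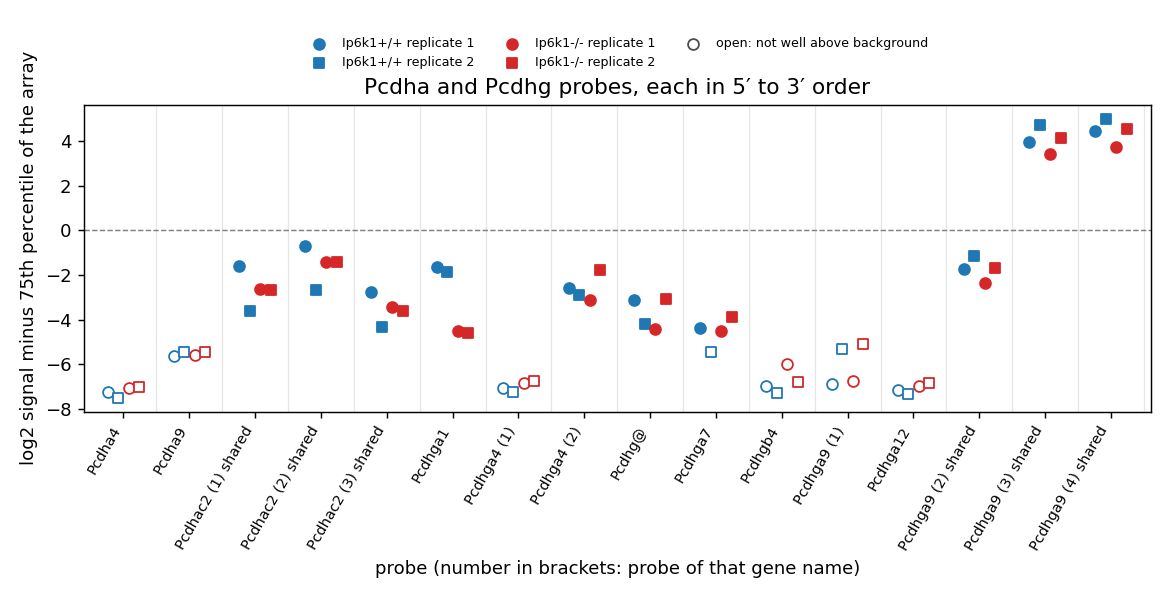
Log2 signal relative to the 75th percentile of each array (y axis) for Pcdha and Pcdhg probes, each cluster in order (x axis), with 1 point for each MEF line and open symbols where the probe was not well above background; probes on shared exons are marked and Pcdha6 is left out because a spot was excluded. The 2 genotypes are separated at Pcdhga1, while at the shared Pcdha exons the red points lie between the 2 blue ones.

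Outside the clusters, 6 of 14 genes were tested. For Pcdh7, Pcdh9, Pcdh10 and Pcdh19 the array probes are shown by the first 30 of 60 bases as the array files give them, 5′ to 3′ and in lower case, so that the transcript stretch behind the values of each gene can be found.
Pcdh9 probe A_52_P197199: tttactggtctataagtactgcctacaagt
Pcdh9 probe A_51_P432432: gtaatcacagtgacagacgaagacgctgga
Pcdh10 probe A_51_P209150: aaggagttggacggattgctgtctaataca
Pcdh7 probe A_51_P260740: aagttccattgcatgagaccttttagttgt
Pcdh7 probe A_52_P130912: aaacaggagaatataagccatctcctgtca
Pcdh19 probe A_52_P432969: agagctttccctaaatgtattgtgtataag
Pcdh19 probe A_51_P348232: agatgagaatgacaaccacccacacttctc

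These non-clustered genes differed more between lines than between genotypes. The 9 probes had a median difference of -0.41, and the 6 of them well above background on all 4 arrays a median of 0.04. None passed the 2-fold rule or the limma test, and on none did the genotypes separate. Without Ip6k1-/- line 1 the median of the 9 became 0.43, and without Ip6k1+/+ line 2 it was -1.25, so that its sign depended on a single line.

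Pcdh9, a protocadherin of the nervous system, was dim in 1 line. Its probe A_52_P197199 (chromosome 14, 94284843 to 94284902) lay at -1.43 and -1.46 in Ip6k1+/+ MEFs, at -6.85 in Ip6k1-/- line 1, where it was not well above background, and at -1.01 in line 2. Probe A_51_P432432 (94286116 to 94286175) lay at -2.65 and -2.85 against -7.04 and -2.71, again without signal well above background in line 1 alone. Both therefore matched between 3 of 4 lines, and the measured mean differences of -2.49 and -2.12 came from that line. With its values raised to the floor of its array they were -1.44 and -0.98, with normexp -0.92 and -0.61, and without the line 0.43 and 0.04. A Pcdh9 probe farther along the gene had signal in Ip6k1+/+ line 1 alone, at -3.74.

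Pcdh17 and Pcdh20 lie on the same chromosome and were also missing from Ip6k1-/- line 1. Pcdh17 lay at -2.26 in Ip6k1+/+ line 1 and -4.01 in Ip6k1-/- line 2, and stayed below that mark elsewhere, at -5.30 and -7.05. Pcdh20 lay at -4.64 in Ip6k1+/+ line 2 and -3.93 in Ip6k1-/- line 2, with -5.81 and -7.01 in the lines without signal well above background. The neighbourhood was examined after these values were seen. Between the outermost protocadherin probes of that region (chromosome 14, 80166728 to 94286175) lie 24 other probes, of which 4, for Diap3 and Tdrd3, were well above background on the other 3 arrays. These start at 87056260 to 87945177, between Pcdh17 and Pcdh20, so none lies beside Pcdh9. All 4 were also well above background in Ip6k1-/- line 1, at 0.11 to 0.26 above the mean of the other lines. Over the array, 322 of 20279 such probes (1.59%) lacked signal well above background in that line.

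Pcdh18 and Pcdh10, which lie on chromosome 3, varied within both genotypes. Pcdh18 lay at 0.36 and 1.76 against -0.04 and 2.78, with Ip6k1-/- lines at both ends. Pcdh10, known to bind the WAVE actin regulatory complex, lay at -1.25 and -4.96 against -4.39 and -2.65 on its tested probe. The Ip6k1+/+ lines were at the ends here, and 2 further Pcdh10 probes had signal in Ip6k1+/+ line 1 alone, at -4.24 and -3.35.

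Pcdh7 lay at -0.31 and -2.45 against -1.94 and -2.36 on its first probe, where Ip6k1+/+ line 1 stood above the other three. Its second probe lay at -4.09 and -5.08 against -4.90 and -5.77 and missed the background criterion in both Ip6k1-/- lines (limma adjusted p = 0.993). With both raised to the floors of their arrays, -4.75 and -4.68, the genotype means differed by -0.13. That difference rested on Ip6k1+/+ line 1, since Ip6k1+/+ line 2 lay below both floors. Pcdh19, the X-linked gene mutated in a form of epilepsy, lay at 3.09 and 2.87 against 2.67 and 3.57 on its first probe and at -1.48 and -1.75 against -1.90 and -1.09 on its second. In both, the Ip6k1-/- lines lay on either side of the Ip6k1+/+ lines. Pcdh1 was the most even gene, at -0.39 and -0.60 against -0.47 and -0.58, with a difference of -0.03 (standard error 0.26).

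**Figure D4:**
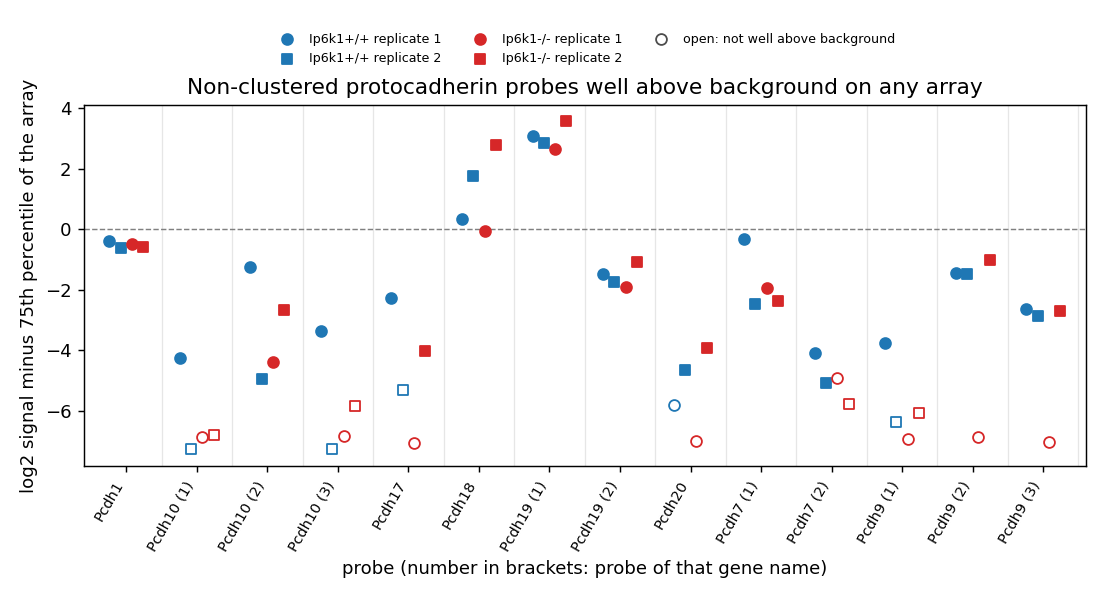
Log2 signal relative to the 75th percentile of each array (y axis) for the non-clustered protocadherin probes well above background on any array (x axis), with 1 point for each MEF line and open symbols where the probe was not well above background. Pcdh9 is near or below -6.85 in Ip6k1-/- line 1 and between -2.85 and -1.01 in the other lines on its last 2 probes, while Pcdh1 is nearly level.

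Pcdh8, Pcdh11x, Pcdh12, Pcdh15, Pcdh21 and Pcdh24 were well above background in no line. Among them are Pcdh12, an endothelial protocadherin, and Pcdh15, a component of hair cell tip links. The probes named Pcdh21 and Pcdh24 list the genes Cdhr1 and Cdhr2, and were taken as protocadherins by probe name. With 10 Pcdhb, 2 Pcdha and 2 Pcdhg names they make 20 of 47 protocadherin names without signal.

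Over all protocadherin probes together, Ip6k1-/- line 1 had the fewest probes well above background. They numbered 39 and 32 in Ip6k1+/+ MEFs and 26 and 33 in Ip6k1-/- MEFs, whereas over the whole array 53.8%, 55.5%, 52.8% and 52.0% of probes were. By group, line 1 was lowest in Pcdhb (15 and 13 against 10 and 13) and non-clustered genes (13 and 10 against 6 and 10). It was not lowest alone in Pcdhg (7 and 6 against 7 and 7) or Pcdha (4 and 3 against 3 and 3). Of the protocadherin probes, 7 had signal well above background in Ip6k1-/- line 2 and not in line 1, for Pcdh9, Pcdh17, Pcdh20, Pcdhb15 and Pcdhb19, and 0 the reverse. Over all probes the counts were 1039 and 1375. On probes well above background on all 4 arrays, line 1 was the lowest line for 15 of 25 protocadherin probes, beside 18.9% of all probes. On 4 protocadherin probes signal was well above background on all arrays except that of line 1, beside 1.49% of all probes, and on 0 on all except that of line 2, beside 2.54%. The Ip6k1+/+ lines were not alike either, since 8 protocadherin probes were well above background in line 1 and not in line 2, beside 2.40% of all probes on the array, and 1 the reverse. The share of the reverse over all probes was not computed. Over the array, Ip6k1+/+ line 2 had more probes well above background than line 1, 55.5% against 53.8%. For 20 of the 25 protocadherin probes with signal in every line, the difference between genotypes was smaller than the larger of the gaps between lines of a genotype. The same share over all probes was not computed, so this count does not set protocadherins apart from other genes.

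The factors that act on the clusters were examined as well. Of a list of 17 regulator names, 16 were on the array and tested. The list held both Wapal and Wapl, and the array uses the name Wapal only. Of the 16, 0 passed the 2-fold rule or limma in either direction, with a median difference of 0.06. Ctcf, the insulator protein that binds the cluster promoters, lay at 1.25 and 1.35 against 1.30 and 1.44. Smchd1, a repressor of clustered protocadherins, lay at 3.91 and 3.71 against 3.72 and 4.00. The largest difference was that of the DNA methyltransferase Dnmt3b, 0.48 (standard error 0.43), from -3.48 and -3.00 against -3.18 and -2.36. The genotypes overlapped for all 3.

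Of 26 listed partners, such as the gamma-secretase subunits that cleave protocadherins and the WAVE complex, 25 were on the array and 22 tested. None passed in either direction, with a median of 0.02, and Cyfip2 of the WAVE complex lay at -4.39 and -4.03 against -5.84, not well above background, and -4.61, a difference of -0.48 once that value was raised to the floor of its array. Wasf1 of the same complex, measured in every line, differed by 0.62 (standard error 0.44) with the genotypes overlapping, at -1.31 and -0.36 against -0.52 and 0.07. Of 18 names of other atypical cadherins 14 were on the array and 8 tested, with a median of -0.08 and 0 past either criterion. Cdhr1 was counted as absent by name, although it is the gene listed for the Pcdh21 probe. Dchs1, a very large cadherin of planar cell polarity, differed by -0.92 (standard error 1.21) at -0.89 and 0.17 against -3.02 and 0.45, with Ip6k1-/- line 1 again the lowest. Fat4, its binding partner, followed another order, at 2.12 and -1.57 against 1.17 and -2.17. The largest difference upwards was that of Clstn3, 0.78 (standard error 0.81), at -3.24 and -2.07 against -2.88 and -0.87, with the genotypes overlapping.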

How the data were processed

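RNA of 4 MEF lines was measured on single-colour Agilent arrays of 1 slide. The authors deposited the scanner intensity of each spot, extracted with Agilent Feature Extraction 10.5.1.1 (per the file headers, coordinates in mm9) and background-corrected by it, together with log2 values that they had scaled to the 75th percentile in GeneSpring GX. Here log2 of the processed intensity minus each array's 75th percentile was used. Outlier spots were left out (96 to 133 per array), replicate spots of a probe were averaged, detection was read from the software's well-above-background mark, and the 21573 of 41174 probes that reached this criterion on both arrays of a genotype were tested with limma 3.58.1 (lmFit, eBayes with a variance trend) in R 4.3.3, with Benjamini-Hochberg adjustment, called at 0.05. The 2-fold rule takes the study's cutoff on the mean difference and adds that each Ip6k1-/- line must lie 0.9 or more from the Ip6k1+/+ mean. Standard errors are limma's. The fit was tested on simulated data with 200 changed probes. The number of arrays limits the precision.

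The members and lists were chosen with earlier results of these data known. Every protocadherin name with a tested probe is named, the others by counts or when they show a line pattern. For listed genes with several probes, the tested probe with the highest mean was used. Shared exons were recognised from the accessions a probe lists, of which the files give only a few, matched to a RefSeq table (GRCm38.p6). Coordinates of that table were used only to count the genes of a cluster that end at the same position. Exon and UTR annotation of single probes was not analysed here. Alternatives were other background correction, scaling, filters and fold rules, a variance model without trend, the methods' t-test, a replicate block and leaving out each line.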

Additional observations from a re-analysis of the deposited data

How the results depend on the processing

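No protocadherin probe was called by limma under any alternative. The methods' t-test had 2 of the 32 at its unadjusted threshold, beside 849 of all 21573 probes, and 0 after Benjamini-Hochberg, as over all probes. The number of probes past the 2-fold rule downwards, 4, became 2 with normexp correction, 8 without a filter on dim probes, 2 with probes well above background on all 4 arrays and 7 with the mean difference alone. Pcdhb20 and Pcdhga1 passed in all of the first 3. Leaving out a line gave 4 to 11 downwards and 0 to 3 upwards, with 7 downwards and 3 upwards without Ip6k1-/- line 1, 11 downwards without Ip6k1-/- line 2 and 2 upwards without Ip6k1+/+ line 1. The Pcdhb median of -0.84 became -0.47 with normexp, -0.32 without a filter, -0.54 with all 4 arrays and -0.51 with a floor on dim values, and ranged from -0.95 to -0.20 with a line left out. The Pcdhg and non-clustered medians became 0.19 and 0.11 without a filter, where the median of all probes was also 0.19, and with a line left out they ranged from -0.93 to -0.15 and from -1.25 to 0.43. The Pcdha median ranged from -0.79 to 0.97. With normexp the differences of Pcdhga1, Pcdhb20, Pcdhb19 and Pcdhb14 were -1.47, -1.21, -0.80 and -0.47. The cause was not tested. With the replicate number as a block, 4 probes again passed the 2-fold rule, and the smallest limma adjusted p was 0.194. At an unadjusted limma p under 0.05 there were 9 in place of 4, and over all probes 1765 in place of 721. The labels do not say that the numbers pair the lines, and the 2 numbers deviated together with r = 0.48 over all tested probes and 0.13 over protocadherin probes. Signal near background limits Pcdhb14, Pcdhb15, Pcdhb19, Pcdh9 and the second Pcdh7 probe, since dim values carry no order.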
